A study of Mus musculus with 12 samples.

Results

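L-cDC1 and M-cDC1 are 2 of the 4 kinds of conventional dendritic cell (cDC) sorted from mouse spleen in a study whose title concerns cDCs of lymphoid origin. The means compared are those of 6 of the 12 libraries, 3 of L-cDC1 and 3 of M-cDC1, chosen by their sample titles. The spread behind each p-value was estimated over all 12 libraries. The comparison was read over 12434 genes that reached 1 FPKM in 3 or more libraries of the 12, FPKM being reads scaled to gene length and library size. Of these, 93 are immunoglobulin (IG) or T cell receptor (TR) gene segments, given apart from the other 12341. Just inside the expression limit stood Gm16001 and Meig1, at 1.00007 and 1.00011 FPKM in the library that ranked 3 for each. Just outside stood 1700109H08Rik and Gm16437, at 0.999819 and 0.999129 FPKM.

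All 6 libraries carry the same labels apart from the title: spleen, cDC, and the genotype Il7r-cre with Rosa26-lsl-tdTomato, in which Cre made under the Il7r promoter switches on a red reporter in cells that express Il7r and in their descendants. Another label and the design text call the mice wild-type C57BL/6J, of 7 to 8 weeks and free of specific pathogens, which leaves the genotype of the sequenced cells unsettled. The letters L and M are not spelled out in the titles, and the labels do not say which cells were sorted on the reporter. No label ties a replicate to an animal of its own, so a p-value here reflects only how much these samples vary, and that variation may be technical. Lymphocytes share a history of Il7r expression, so an Il7r reporter marks them too.

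The cDC1 subset takes up dead cells, presents their antigens to CD8 T cells and makes IL-12. It depends on the transcription factors Irf8 and Batf3 and is recognised by Xcr1, a chemokine receptor, and Clec9a, a receptor for dead cells. Most cDCs descend from myeloid progenitors, and lymphoid progenitors have also been described to give rise to cDCs. B cells are marked by the antigen receptor and its signalling chains, and only lymphocytes join V, D and J segments into a receptor gene.

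Recovered depth ran from 17872718 to 22458372 reads in the 6 libraries and from 15879864 to 24498235 in all 12. Within groups, log2(FPKM + 1) values correlated at Pearson's r of 0.962 to 0.979 across genes, and between L-cDC1 and M-cDC1 libraries at 0.954 to 0.974. Libraries of the 2 groups were therefore almost as alike as libraries of 1 group. L-cDC1 replicate 3 stood apart in base composition within its group. Its genes of the lowest GC decile lay a median of -0.19 log2 units from their mean over the 3 libraries of the group. Those of the highest decile lay at 0.13. M-cDC1 replicate 3 leaned the same way (-0.13 and 0.09) and L-cDC1 replicate 1 the other way (0.13 and -0.10). The part of GC content in the results was not tested beyond the GC-centred fit given with the processing alternatives.

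Both groups expressed the genes of a fixed cDC1 identity list, and none of these was called. Nfil3 and Il12b, which stand outside that list, were called and are given below. The summed level of 22 cDC1 identity genes was 4133 to 4450 FPKM in L-cDC1 and 4320 to 4527 FPKM in M-cDC1. None of the 22 was called by limma with Benjamini-Hochberg adjustment, 0 had an unadjusted p under 0.05, and the limma-voom fit to reads also called 0. Their median difference, L minus M, was -0.05 on the log2(FPKM + 1) scale, beside 0.02 over all genes tested. Irf8 stood at 557, 547 and 607 FPKM in L-cDC1 replicates 1 to 3 and at 549, 495 and 586 FPKM in M-cDC1. Xcr1 stood at 244, 193 and 181 FPKM against 227, 249 and 200 FPKM. Both groups overlapped for these genes. Clec9a was at 92.8, 96.9 and 91.8 FPKM in L-cDC1 and at 105, 111 and 104 FPKM in M-cDC1, a difference of -0.18 ± 0.15 (SE) with an adjusted p of 0.747 from limma. The groups of Clec9a did not overlap. Those of Batf3 did, with a difference of -0.08 ± 0.12. Flt3, the receptor for the growth factor of cDCs, differed by 0.02 ± 0.12, and Zbtb46, a transcription factor of cDCs, by 0.28 ± 0.14 with an adjusted p of 0.523. Genes of the cDC2 identity list were low in both groups. Their sum was 81.6 to 94.7 FPKM in L-cDC1 and 97.6 to 102 FPKM in M-cDC1, against 1827 or more in each cDC2 library. Of the 20 tested, Dtx1 alone was called, higher in L-cDC1 (limma, adjusted p of 0.008). On the lower side, 2 had an unadjusted p under 0.05.

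Il7r, the gene that drives Cre in the labelled genotype, was near the floor in both groups. It was at 0.193, 0.0103 and 0.325 FPKM in L-cDC1 and at 0.296, 0.18 and 0.00977 FPKM in M-cDC1, with overlapping groups. Rag1, which cuts antigen receptor genes in lymphoid progenitors, had too few reads to be tested and was at 0 in 5 of the 6 libraries. Neither gene reports on past expression.

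Outside the antigen receptor segments, 37 genes were called at an adjusted p under 0.05, 33 higher and 4 lower in L-cDC1. With the segments, 49 genes were called in either direction (0.394% of genes tested), 44 higher (0.354%) and 5 lower (0.0402%). The limma-voom fit called 44 genes in either direction, beside the 49 here, and shared only 26 of the 37 and 3 of the 12 segments with these. Outside the segments, a limma fit to the 6 cDC1 libraries alone called 10 genes, 9 of them among the 37. Calls that voom did not make included those of Cd79a (adjusted p of 0.133), Cd72 (0.0541), Spib (0.0586), Nfil3 (0.0533), Dusp2 (0.0632), Cd8b1 (0.14), Il21r (0.225), Stk40 (0.099), Pex6 (0.0647) and BC147527 (0.133), and of Igkc (0.22), Iglc2 (0.0524), Iglc3 (0.0533), Igkv4-57 (0.0759) and Ighv1-81 (0.0697). For all 49 called genes the 3 libraries of one group lay outside the range of the other, which held for 13.9% of all genes tested. An unadjusted p under 0.05 was found for 6.52% of genes on the higher side and 3.76% on the lower side. Differences on the log2(FPKM + 1) scale understate the change of genes at low levels. In bulk libraries, more cells of a type and more RNA per cell cannot be told apart.

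**Figure D1:**
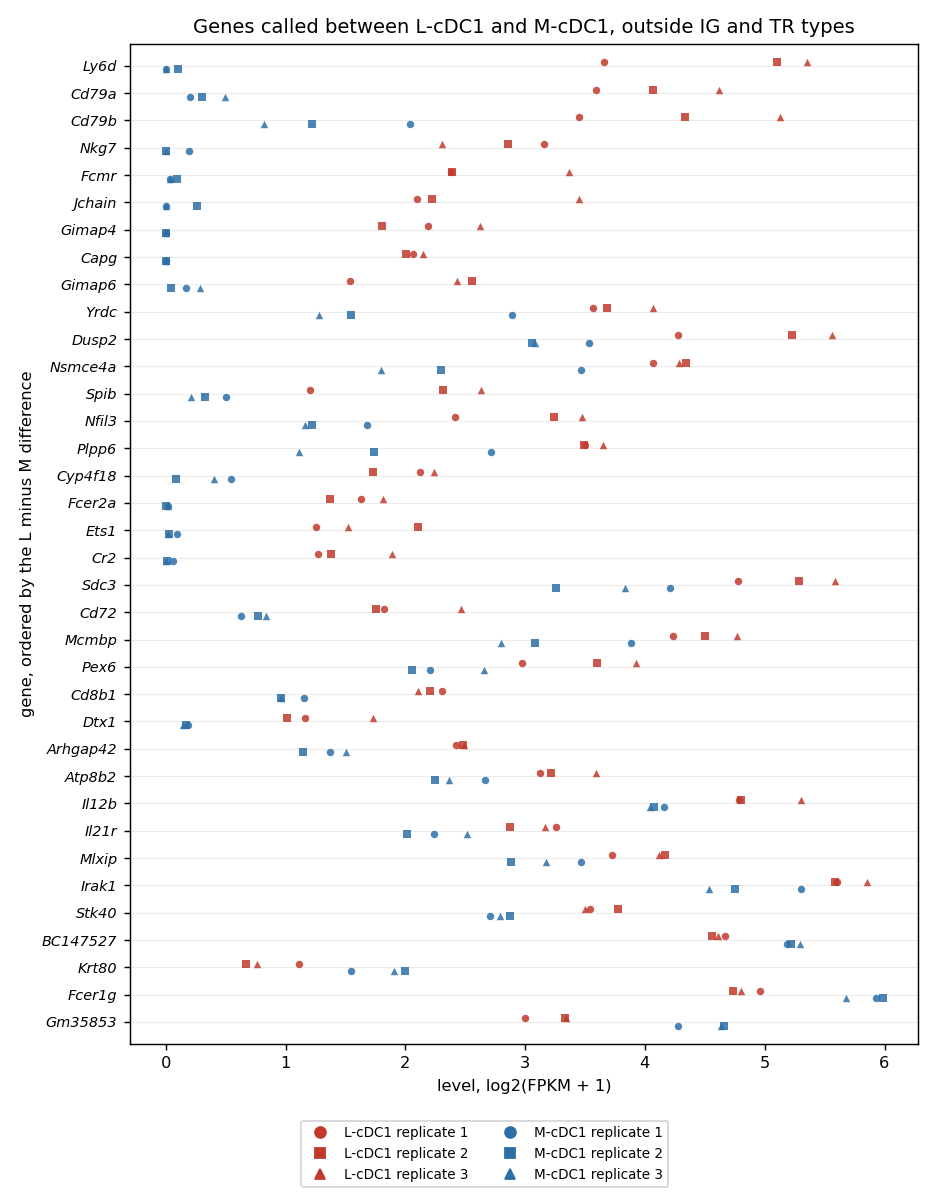
Level of 36 of the 37 called genes outside IG and TR types in the 6 cDC1 libraries, as log2(FPKM + 1); red marks are L-cDC1 and blue marks M-cDC1, with the replicate given by the shape. In the upper rows, such as Ly6d, Cd79a, Nkg7 and Capg, the M-cDC1 libraries sit at or near 0; in the lowest 4 rows (BC147527, Krt80, Fcer1g, Gm35853) the M-cDC1 libraries are the higher ones.

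The largest rises in L-cDC1 were genes of the B lineage. Ly6d, a lipid-anchored protein on progenitors committed to the B lineage and on plasmacytoid DCs (pDCs), was at 11.6, 33.3 and 39.9 FPKM in L-cDC1 replicates 1 to 3 and at 0, 0.0752 and 0 FPKM in M-cDC1, a difference of 4.67 ± 0.42 with an adjusted p of 0.000169 from limma. A single read lay on Ly6d in the 3 M-cDC1 libraries together, against 1245 in L-cDC1. Its call was kept in every alternative fit.

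The B cell antigen receptor signals through a pair of chains encoded by Cd79a and Cd79b. Cd79a was at 11.03, 15.7 and 23.6 FPKM in L-cDC1 and at 0.153, 0.23 and 0.406 FPKM in M-cDC1, 63.8-fold apart in means. Cd79b was at 9.90, 19.2 and 34.0 FPKM against 3.11, 1.33 and 0.764 FPKM. Every L-cDC1 library exceeded every M-cDC1 library for both, and the 2 chains differed in M-cDC1, where Cd79b had 158 reads and Cd79a 24. The log2 differences were 3.76 ± 0.47 for Cd79a and 2.94 ± 0.39 for Cd79b (limma, adjusted p of 0.00239 and 0.00374). The voom fit gave Cd79a an adjusted p of 0.133.

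Cr2 and Cd72, which are coreceptors of B cells, were also called. Cr2, a complement receptor, was at 1.41, 1.60 and 2.7 FPKM in L-cDC1 and at 0.0437, 0.00687 and 0 FPKM in M-cDC1, a difference of 1.49 ± 0.21 with an adjusted p of 0.00491 from limma. It was highest in L-cDC1 replicate 3. Cd72, an inhibitory coreceptor, rose by 1.27 ± 0.18 from a low level that was above 0 in each M-cDC1 library (0.547 to 0.785 FPKM). Cd22, another inhibitory coreceptor, was not called (0.60, adjusted p of 0.259 from limma), and its groups overlapped.

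Receptors for antibody were among the rises and among the falls. Fcmr, the receptor for the Fc part of IgM, was at 4.20, 4.25 and 9.33 FPKM in L-cDC1 and at 0.0257, 0.0645 and 0.0262 FPKM in M-cDC1, a difference of 2.66 ± 0.29 (limma, adjusted p of 0.000676). Fcer2a, the low-affinity IgE receptor of B cells, was at 2.09, 1.59 and 2.52 FPKM against 2 reads in all of M-cDC1. Fcer1g, the signalling chain shared by activating Fc receptors, went the other way. It was at 30.2, 25.7 and 27.0 FPKM in L-cDC1 and at 59.8, 62.3 and 50.3 FPKM in M-cDC1, with no overlap and a 2.08-fold ratio of means. The difference of -1.03 ± 0.11 had an adjusted p of 0.000676 from limma, and the call was kept in every alternative fit. Of the 8 Fc receptor genes tested, these 3 were the ones called. Of 17 tested chains and kinases of the immunoreceptor (ITAM) pathway, Cd79a and Cd79b rose, Fcer1g fell, and the other 14 were not called.

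Over the fixed list of 23 B cell genes, 20 were tested and 9 rose, among them Ly6d, Cd79a, Cd79b, Fcmr, Spib, Fcer2a, Cr2 and Cd72. The other 11 were not called, 17 of the 20 had an unadjusted p under 0.05 on the higher side, and all 20 differences were above 0. Their median was 1.33, beside 0.02 over all genes tested, and ran from 0.47 to 4.46 over the alternative fits. A marker absent from M-cDC1 passes the expression limit only where other libraries hold it, so these counts describe the list and are no test of it. The summed level of the list was 97.1, 169 and 216 FPKM in L-cDC1 and 41.4 to 49.7 FPKM in M-cDC1. Pax5, the factor that fixes B cell identity, was at 0 in every M-cDC1 library and had reads in L-cDC1. It lay below the expression limit and was not tested. Replicate 1 had the lowest sum of L-cDC1 and replicate 3 the highest, in the same order as Ly6d, Cd79a and Cd79b.

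Jchain, which joins the units of secreted IgM and IgA, was at 3.28, 3.68 and 9.92 FPKM in L-cDC1 and at 0, 0.2 and 0 FPKM in M-cDC1 (limma, adjusted p of 0.00705). It was the sole called gene of 6 tested plasma cell markers. Sdc1 was at 0 in every L-cDC1 library and Tnfrsf17 in every library of both groups, and the summed level of the plasma cell list overlapped, at 128 to 153 FPKM against 123 to 138 FPKM. Mzb1, a chaperone of IgM assembly, was at 0.305, 1.47 and 2.41 FPKM in L-cDC1 and at 0 in M-cDC1, with an adjusted p of 0.407.

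Spib, an Ets-family transcription factor of B cells and pDCs, was at 1.31, 3.97 and 5.21 FPKM in L-cDC1 and at 0.419, 0.254 and 0.159 FPKM in M-cDC1, a difference of 1.70 ± 0.29 with an adjusted p of 0.0181 from limma. The call was lost without L-cDC1 replicate 2 (adjusted p of 0.094) or 3 (0.0703) and without M-cDC1 replicate 2 (0.103) or 3 (0.088). Of 12 tested pDC genes, Ly6d and Spib alone were called. The summed pDC list overlapped, at 153 to 192 FPKM in L-cDC1 and 159 to 173 FPKM in M-cDC1, and Klk1 and Cox6a2, which mark pDCs, were at 0 in all 6 libraries.

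**Figure D2:**
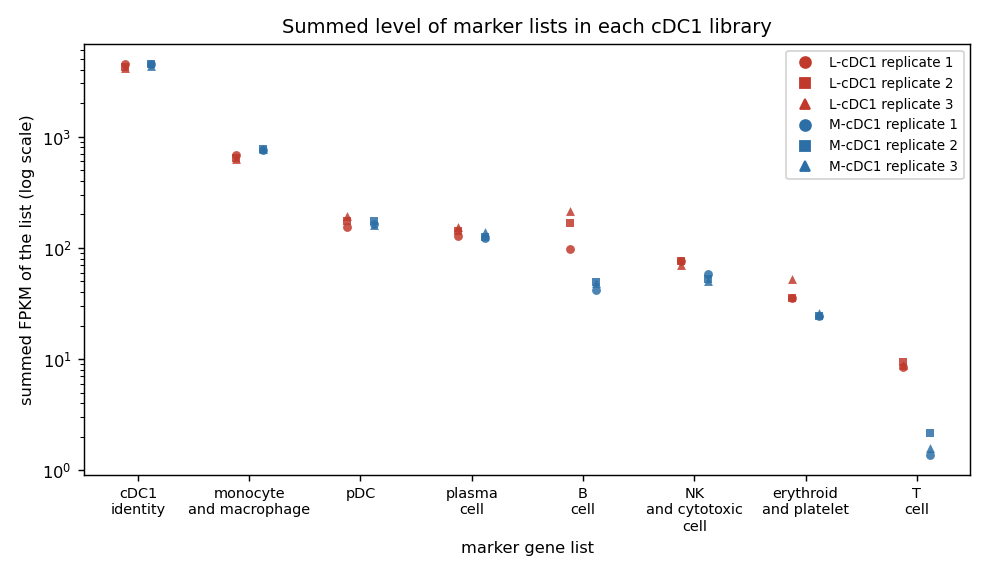
Summed FPKM of 8 marker lists in each cDC1 library, on a log axis; red marks are L-cDC1, blue marks M-cDC1, and shapes are replicates. The sums of the B cell, T cell, NK and erythroid lists are higher in the 3 L-cDC1 libraries than in the 3 M-cDC1 libraries, the monocyte and macrophage sum is lower, and the pDC and plasma cell sums overlap.

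Among genes of the T cell list and the NK and cytotoxic cell list, 1 was called. Nkg7, a granule protein of NK and cytotoxic T cells, was at 7.93, 6.23 and 3.94 FPKM in L-cDC1 and at 0.146, 0 and 0 FPKM in M-cDC1, a difference of 2.71 ± 0.37 (limma, adjusted p of 0.00417). Unlike the B cell genes it was highest in replicate 1. Nkg7 was the sole called gene of 10 tested NK genes, and none of 6 tested T cell genes was called, though 4 and 3 of them had an unadjusted p under 0.05 on the higher side. Cd2, an adhesion receptor of T and NK cells, was at 0.668, 1.94 and 3.24 FPKM in L-cDC1 and at 0 in M-cDC1, with an adjusted p of 0.0628 from limma and of 0.0167 from voom. Lck, the kinase of the T cell receptor, was at 2.35, 2.34 and 0.0357 FPKM against 0.0304 FPKM or less, with an adjusted p of 0.26. Its level in L-cDC1 replicate 3 was close to the highest of M-cDC1. The summed T cell list was 8.56 to 9.35 FPKM in L-cDC1 and 1.38 to 2.17 FPKM in M-cDC1. In M-cDC1, 6 of the 19 genes (Cd2, Cd28, Cd3g, Skap1, Themis and Thy1) were at 0. Of these, Cd28 was at 0 in every L-cDC1 library too. The NK list summed to 70.6 to 76.5 FPKM against 50.1 to 57.9 FPKM, with 5 of 15 genes at 0 in M-cDC1 (Eomes, Gzmb, Klra8, Klrb1c and Prf1).

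Several called genes outside those marker lists are known from lymphocytes. Gimap4, a GTPase of lymphocytes, was at 3.57, 2.49 and 5.15 FPKM in L-cDC1 and at 0 in every M-cDC1 library, which puts it at least 141-fold higher against 3 reads over the M-cDC1 group. Gimap6, its neighbour on chromosome 6, was at 1.91, 4.90 and 4.39 FPKM against 0.127, 0.032 and 0.222 FPKM. Ets1, a transcription factor of T, B and NK cells, was at 1.39, 3.31 and 1.87 FPKM against 0.0683 FPKM or less. All 3 kept their calls without any single library. Cd8b1, the beta chain of the CD8 coreceptor of T cells, was at 3.96, 3.61 and 3.31 FPKM in L-cDC1 and at 1.23, 0.943 and 0.952 FPKM in M-cDC1. Its call (limma, adjusted p of 0.0259) was lost without L-cDC1 replicate 1, 2 or 3 (0.0617, 0.094 and 0.0703) and without M-cDC1 replicate 2 or 3 (0.145 and 0.119).

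Capg, an actin filament capping protein, was at 3.18, 3.01 and 3.43 FPKM in L-cDC1 and at 0 in all 3 M-cDC1 libraries, at least 168-fold higher against the same floor. The difference was 2.07 ± 0.19 (limma, adjusted p of 0.000169), and it was kept in every alternative fit. Capg stands in none of the marker lists used here.

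Most markers of monocytes and macrophages moved the other way, without a call. Of 15 tested, 0 were called by limma and 0 by voom, and 4 had an unadjusted p under 0.05 on the lower side. Differences were below 0 for 11 and above 0 for 4, with a median of -0.10. Lyz2, the lysozyme of myeloid cells, was at 329, 318 and 319 FPKM in L-cDC1 and at 420, 418 and 474 FPKM in M-cDC1, and the groups did not overlap. Csf1r, the receptor for the macrophage growth factor, was at 1.56, 1.04 and 1.19 FPKM against 2.45, 2.02 and 2.95 FPKM, and Ccr2, which draws monocytes from the bone marrow, at 7.80, 8.17 and 5.84 FPKM against 9.72, 12.8 and 9.32 FPKM. Their adjusted p from limma was 0.411 for Lyz2, 0.114 for Csf1r and 0.315 for Ccr2. The list summed to 632 to 685 FPKM in L-cDC1 and 759 to 781 FPKM in M-cDC1. Erythroid and platelet genes summed to 35.4 to 52.9 FPKM in L-cDC1 and 24.4 to 25.8 FPKM in M-cDC1, with 0 of 6 called by limma or voom and 2 at an unadjusted p under 0.05 on the higher side. Neutrophil genes summed to 0 to 2.90 FPKM in L-cDC1 and 0.0729 to 2.57 FPKM in M-cDC1, and the groups overlapped. The part that other cell types had in any of these differences was not tested.

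Antigen receptor segments carried the largest differences of the comparison. They took 0.0903% to 0.140% of reads in L-cDC1 and 0.0573% to 0.0658% in M-cDC1. Of the 93 tested, 12 were called, 11 higher and 1 lower, and 83 differences were above 0. Their median was 0.91, or 1.95 with the 51 segments that were at 0 in one whole group set at their bound. A segment absent from M-cDC1 passes the expression limit only where other libraries hold it. These counts and medians thus describe the segments tested and are no test of them. The calls were 3 of 10 immunoglobulin constant genes, 5 of 62 V genes, 2 of 12 J segments and 2 of 3 T cell receptor constant genes.

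Igkc, the constant part of the kappa light chain, was at 137, 194 and 404 FPKM in L-cDC1 and at 2.93, 2.84 and 1.37 FPKM in M-cDC1, a difference of 6.07 ± 0.54 (limma, adjusted p of 0.000169). The ratio of means was 103-fold, and the call was kept without each library in turn. The voom fit gave it an adjusted p of 0.22. Iglc2, a constant part of the lambda light chain, was at 10.5, 25.7 and 28.8 FPKM in L-cDC1 and at 0 in M-cDC1, at least 277-fold higher against 3 reads over the group. Iglc3 was at 9.83, 20.8 and 30.4 FPKM against 1 read in M-cDC1. Iglc1 followed with 1.17, 10.6 and 13.9 FPKM against 0.123 FPKM or less, with an adjusted p of 0.0637.

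None of the heavy chain constant genes was called, and heavy and light chains were not compared by a test. Ighm, the constant part of IgM, was abundant in both groups, at 404, 349 and 416 FPKM in L-cDC1 and at 302, 293 and 343 FPKM in M-cDC1. The groups did not overlap, but the difference of 0.32 ± 0.18 was not called (limma, adjusted p of 0.591). M-cDC1 libraries thus held much Ighm beside little light chain. Ighd, the constant part of IgD, was at 9.16, 13.4 and 13.2 FPKM against 5.23, 5.15 and 2.92 FPKM, with an adjusted p of 0.152. Igha was near 0 in 5 libraries and at 55 FPKM in L-cDC1 replicate 3.

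V genes told the groups apart by how many were seen. In the kappa locus, 25, 43 and 48 of 100 V genes had 3 or more reads in L-cDC1 replicates 1 to 3, against 1, 2 and 0 in M-cDC1. In the heavy chain locus the counts were 10, 15 and 17 of 113 against 1, 2 and 2. Kappa V reads numbered 702, 1128 and 2046 in L-cDC1 and 14, 17 and 2 in M-cDC1. Reads of many V genes were thus present in each L-cDC1 library, with a few of them prevailing. The leading kappa V gene was Igkv4-55 in replicate 1 with 60.4% of kappa V reads, and Igkv4-57 in replicates 2 and 3 with 38.5% and 41.5%. The leading heavy chain V gene was Ighv1-80 in replicate 1 (63.6% of heavy chain V reads) and Ighv1-81 in replicates 2 and 3 (49.9% and 85.2%).

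**Figure D3:**
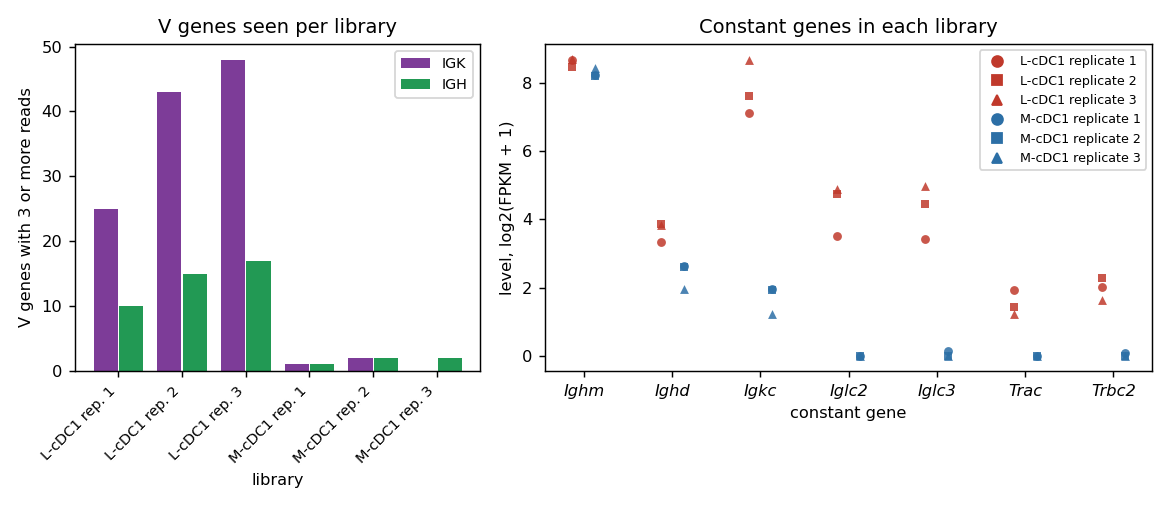
Left, number of kappa (IGK) and heavy chain (IGH) V genes with 3 or more reads in each cDC1 library; right, level of 7 constant genes as log2(FPKM + 1), red for L-cDC1 and blue for M-cDC1. L-cDC1 libraries hold 25 to 48 kappa V genes against 0 to 2 in M-cDC1, while Ighm lies close together in both groups.

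Among called V genes, Igkv4-57 was at 6.76, 59.5 and 126 FPKM in L-cDC1 and at 0 in M-cDC1, at least 469-fold higher. Ighv1-81 was at 6.03, 22.3 and 122 FPKM against 0, at least 361-fold higher. The 3 L-cDC1 libraries spread widely for both, with replicate 3 far above replicate 1. Igkv6-15 was more even, at 9.91, 8.76 and 21.1 FPKM against 0.257, 0 and 0 FPKM, and its call (limma, adjusted p of 0.000169) was kept in every alternative fit. Ighv1-81 lost its call without M-cDC1 replicate 2 (adjusted p of 0.0717) or 3 (0.0597).

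Near-identical segments can exchange reads, so the sequences of the leading kappa V genes and of the paired lambda constant genes are shown, as annotated by GENCODE M21 on build GRCm38. Igkv4-57 and Igkv4-55 are neighbours on chromosome 6. Over their last coding exon, 286 of 303 bases are the same (94.4%), the longest identical stretch is 73 bases, and 18.1% of the windows of 50 bases in Igkv4-57 occur unchanged in Igkv4-55. The first 300 bases of that exon, 5′ to 3′ on the minus strand, lie at chr6:69575978-69576277 for Igkv4-57 and at chr6:69607278-69607577 for Igkv4-55. Capitals mark the 17 bases that differ within each pair.
Igkv4-57: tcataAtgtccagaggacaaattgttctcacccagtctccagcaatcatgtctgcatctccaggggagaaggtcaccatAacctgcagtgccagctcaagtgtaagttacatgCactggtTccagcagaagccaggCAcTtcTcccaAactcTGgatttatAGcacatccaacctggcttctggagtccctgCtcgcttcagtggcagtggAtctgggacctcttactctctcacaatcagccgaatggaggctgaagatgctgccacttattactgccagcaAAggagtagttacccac
Igkv4-55: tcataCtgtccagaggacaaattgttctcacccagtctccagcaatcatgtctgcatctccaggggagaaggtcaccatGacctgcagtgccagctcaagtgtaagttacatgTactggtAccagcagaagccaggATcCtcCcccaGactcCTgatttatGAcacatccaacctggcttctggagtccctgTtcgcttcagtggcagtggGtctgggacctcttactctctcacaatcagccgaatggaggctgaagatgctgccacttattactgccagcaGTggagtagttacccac
Most of the differing bases lie in the middle of the exon, and a read that lies wholly in a shared stretch matches both genes.

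Iglc2 and Iglc3 share 303 of 314 coding bases (96.5%), with a longest identical stretch of 79 bases. The stretches shown lie at chr16:19198553-19198852 and chr16:19065382-19065681, 5′ to 3′ on the minus strand, and capitals mark the 11 bases that differ.
Iglc2: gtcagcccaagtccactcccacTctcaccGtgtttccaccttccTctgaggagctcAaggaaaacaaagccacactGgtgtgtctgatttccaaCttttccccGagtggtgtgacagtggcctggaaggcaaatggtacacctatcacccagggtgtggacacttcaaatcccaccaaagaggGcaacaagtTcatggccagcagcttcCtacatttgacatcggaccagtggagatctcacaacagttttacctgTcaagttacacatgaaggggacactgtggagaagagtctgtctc
Iglc3: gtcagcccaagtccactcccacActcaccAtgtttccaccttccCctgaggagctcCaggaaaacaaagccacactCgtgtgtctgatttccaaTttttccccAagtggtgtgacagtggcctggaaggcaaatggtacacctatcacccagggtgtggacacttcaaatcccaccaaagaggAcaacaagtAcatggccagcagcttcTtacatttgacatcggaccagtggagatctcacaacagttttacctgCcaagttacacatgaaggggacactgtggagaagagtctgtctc
How reads that match both genes were counted is not given in the sources used here, so the values of Iglc2 and Iglc3 may share reads. The nearest relatives of Ighv1-81 and Igkv6-15 were Ighv1-85, at 92.8% identity, and Igkv6-23, at 94.6%.

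T cell receptor constant genes were low and one-sided. Trac, of the alpha chain, was at 2.83, 1.70 and 1.34 FPKM in L-cDC1 and at 0 in M-cDC1, at least 37.8-fold higher (limma, adjusted p of 0.00705). Trbc2, of a beta chain, was at 3.06, 3.9 and 2.11 FPKM against 1 read in M-cDC1. No L-cDC1 library overlapped an M-cDC1 library for either gene. The call of Trbc2 (limma, adjusted p of 0.0108) was lost without L-cDC1 replicate 2 (0.0663) and without M-cDC1 replicate 2 (0.0717) or 3 (0.0597). At most 4 T cell receptor V genes per L-cDC1 library had 3 or more reads. The 2 called heavy chain J segments rest on few reads. Ighj1, a segment of 53 bases, had 0 reads in L-cDC1 and 14 in M-cDC1, and Ighj3, of 48 bases, had 8 and 0. Of the 12 called segments, 6 kept the call when each library was left out in turn: Igkc, Iglc2, Iglc3, Igkv4-57, Igkv6-15 and Trac. Without M-cDC1 replicate 3 the other 6 were lost (adjusted p of 0.0597 to 0.139).

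Apart from lymphocyte genes, the rises held genes known to act in DCs. Nfil3, a transcription factor that cDC1 development needs, was at 4.33, 8.47 and 10.1 FPKM in L-cDC1 and at 2.2, 1.33 and 1.24 FPKM in M-cDC1, a difference of 1.69 ± 0.31 (limma, adjusted p of 0.0322). It was the sole called gene of 31 tested genes in a list of general cDC genes and DC transcription factors, of which 6 had an unadjusted p under 0.05 on the higher side. Without L-cDC1 replicate 2 or 3 its adjusted p was 0.125 and 0.126, and without M-cDC1 replicate 2 or 3 it was 0.179 and 0.135.

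Il12b encodes the p40 chain shared by the cytokines IL-12 and IL-23. It was at 26.5, 26.9 and 38.5 FPKM in L-cDC1 and at 16.9, 15.9 and 15.5 FPKM in M-cDC1, 1.90-fold apart in means and without overlap. The difference of 0.87 ± 0.16 had an adjusted p of 0.0369 from limma. The call was kept without L-cDC1 replicate 1 and lost without replicate 2 or 3 (adjusted p of 0.0663 and 0.119) and without M-cDC1 replicate 1, 2 or 3 (0.0524, 0.179 and 0.138). Il12a, the partner chain of IL-12, was at 0 in every L-cDC1 library and had reads in M-cDC1. It lay below the expression limit and was not tested.

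Other genes of DC maturation leaned the same way. Of 23 tested, Il12b alone was called, 7 had an unadjusted p under 0.05 on the higher side and 0 on the lower, and 19 differences were above 0, with a median of 0.29. Over all genes tested, such a p was found for 6.52% on the higher side and 3.76% on the lower. Differences were above 0 for 6551 of the 12434, with a median of 0.02. Ccr7, which leads mature DCs to the T cell zone, was at 72.6, 67.4 and 78.2 FPKM in L-cDC1 and at 51.0, 40.2 and 50.03 FPKM in M-cDC1, with an adjusted p of 0.0628. Fscn1, an actin bundler of mature DCs, was at 4.76, 5.46 and 6.66 FPKM against 2.93, 2.36 and 3.74 FPKM, with an adjusted p of 0.0865. For both genes every L-cDC1 library was above every M-cDC1 library. The list's median stayed above 0 in every alternative fit, from 0.15 to 0.38. In the cDC2 libraries the list's median was -0.06, with 0 genes at an unadjusted p under 0.05 on the higher side and 2 on the lower. Presentation genes did not separate the groups: 0 of 17 tested MHC class II genes and 0 of 23 MHC class I genes were called by limma or voom, with 2 and 0 at an unadjusted p under 0.05.

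The rises also held genes of signalling. Irak1, the kinase below Toll-like receptors, was at 47.8, 47.1 and 56.9 FPKM in L-cDC1 and at 38.5, 26.0 and 22.2 FPKM in M-cDC1, and was the sole called gene of 23 in its pathway list. Dusp2, a phosphatase of MAP kinases induced on activation, was at 18.4, 36.4 and 46.2 FPKM against 10.6, 7.32 and 7.48 FPKM. Il21r, the receptor of IL-21, was at 8.56, 6.34 and 7.95 FPKM against 3.72, 3.03 and 4.73 FPKM. Sdc3, a heparan sulfate proteoglycan, was at 26.4, 38.1 and 47.0 FPKM against 17.5, 8.58 and 13.3 FPKM. Groups did not overlap for any of these genes. Their adjusted p from limma was 0.0462 for Irak1, 0.0322 for Dusp2, 0.0453 for Il21r and 0.0245 for Sdc3, and without M-cDC1 replicate 2 it was 0.232, 0.179, 0.225 and 0.131, in the same order. Without L-cDC1 replicate 3 it was 0.161, 0.122, 0.132 and 0.114. The calls of Irak1, Dusp2 and Sdc3 were also lost without L-cDC1 replicate 2 (0.0989, 0.125 and 0.0975) or M-cDC1 replicate 3 (0.139, 0.13 and 0.0835). Without L-cDC1 replicate 1 those of Irak1 (0.0622) and Il21r (0.0924) were lost, and without M-cDC1 replicate 1 that of Il21r (0.0708). Dusp2 was the sole called gene of 27 tested immediate early genes, of which 8 had an unadjusted p under 0.05 on the higher side.

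Dtx1 and Cyp4f18 were at low levels in the cDC1 libraries. Dtx1 stands in the cDC2 identity list and was at 70.7 to 124.6 FPKM in the cDC2 libraries. Dtx1, a ubiquitin ligase of the Notch pathway, was at 1.23, 1.02 and 2.31 FPKM in L-cDC1 and at 0.135, 0.127 and 0.104 FPKM in M-cDC1, 12.4-fold apart in means. Cyp4f18, a cytochrome P450, was at 3.36, 2.31 and 3.72 FPKM against 0.456, 0.0603 and 0.319 FPKM. Both kept their calls without any single library. Cyp4f18 overlaps Zfp961 on the other strand, at 1.99 to 3.98 FPKM in the 6 libraries, and the kits used do not mark strand.

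The remaining 9 rises belonged to none of the groups above. Among them were Yrdc, which modifies tRNA, Nsmce4a, a part of the SMC5/6 DNA repair complex, Mcmbp, which binds the replicative helicase, and Pex6, a peroxisome ATPase. Yrdc was at 10.9, 11.9 and 15.7 FPKM in L-cDC1 and at 6.43, 1.92 and 1.43 FPKM in M-cDC1. Nsmce4a was at 15.7, 19.3 and 18.5 FPKM against 10.1, 3.91 and 2.47 FPKM. In both, M-cDC1 replicate 1 stood nearest to L-cDC1. That replicate was the highest of M-cDC1 for 22 of the 33 rises, and L-cDC1 replicate 3 was the highest of L-cDC1 for 25 of the 33. Plpp6, Arhgap42, Atp8b2, Mlxip and Stk40 made up the rest, with log2 differences from 0.82 for Stk40 to 1.69 for Plpp6. All 9 lost their calls without L-cDC1 replicate 2 or 3 and without M-cDC1 replicate 2 or 3, at adjusted p-values between 0.0594 and 0.238.

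A like order of libraries was seen in uncalled genes. Rac1, a small GTPase, was at 19.0, 34.3 and 56.8 FPKM in L-cDC1 and at 10.7, 8.05 and 5.97 FPKM in M-cDC1, with an adjusted p of 0.111. Lamp1, a lysosomal membrane protein, was at 19.9, 24.9 and 48.2 FPKM against 12.5, 5.50 and 3.76 FPKM, with an adjusted p of 0.0628. In both genes L-cDC1 replicate 3 was the highest library and M-cDC1 replicate 3 the lowest.

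Of the 37 called genes, 17 kept the call when each of the 6 libraries was left out in turn, among them Ly6d, Cd79a, Cd79b, Cr2, Fcer2a, Fcmr, Cd72, Jchain, Nkg7, Gimap4, Gimap6, Ets1, Capg, Cyp4f18, Dtx1 and Fcer1g. The other 20 were lost in at least 1 such fit. Without M-cDC1 replicate 2 all 20 were lost (adjusted p of 0.0816 to 0.238), and without M-cDC1 replicate 3 it was 19 (0.0594 to 0.155). Without L-cDC1 replicate 2, 18 were lost (0.0663 to 0.168), and without L-cDC1 replicate 3, 19 (0.0703 to 0.162). Without L-cDC1 replicate 1, 6 were lost (0.0617 to 0.0924), and without M-cDC1 replicate 1, 4 (0.0524 to 0.0891). The whole count of calls moved with it, to 69 without L-cDC1 replicate 1, to 24 without replicate 2 or 3, and to 92, 17 and 20 without M-cDC1 replicates 1, 2 and 3.

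The 4 falls in L-cDC1 held 2 overlapping genes besides Fcer1g. Krt80, a keratin, was at 1.17, 0.588 and 0.695 FPKM in L-cDC1 and at 1.93, 2.98 and 2.74 FPKM in M-cDC1. Gm35853, a long noncoding RNA gene, was at 7.02, 9.08 and 9.13 FPKM against 18.4, 24.3 and 23.9 FPKM. Gm35853 spans Krt80 on the opposite strand of chromosome 15. Without strand, reads in any exonic sequence that the genes share cannot be told apart, and whether their exons overlap was not examined. BC147527 was at 24.4, 22.5 and 23.4 FPKM against 35.4, 36.2 and 38.2 FPKM, a difference of -0.62 ± 0.11. Its groups were the tightest of the 4, and its adjusted p was 0.0313 from limma and 0.133 from voom. The calls of Krt80, Gm35853 and BC147527 were lost without M-cDC1 replicate 2 (adjusted p of 0.131, 0.0816 and 0.131) or 3 (0.0909, 0.0647 and 0.128), and those of Krt80 and BC147527 also without L-cDC1 replicate 2 (0.089 and 0.116) or 3 (0.0737 and 0.101).

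**Figure D4:**
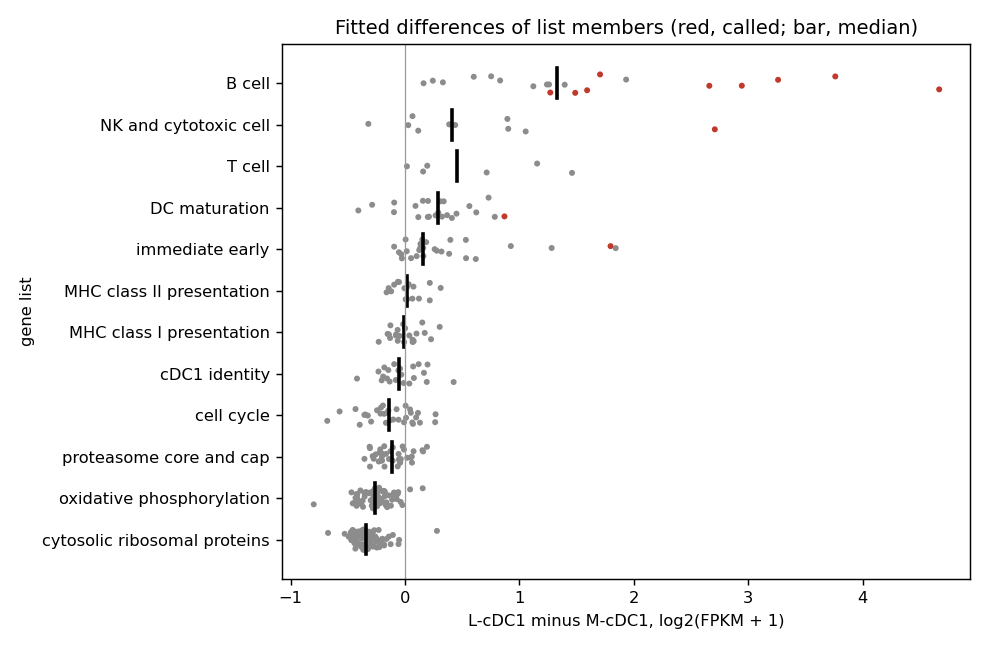
Fitted L-cDC1 minus M-cDC1 difference of each tested member of 12 gene lists, on the log2(FPKM + 1) scale; red points are called, grey points are not, and black bars are list medians. The B cell list reaches furthest right, with a median of 1.33, while the ribosomal and oxidative phosphorylation lists lie left of 0 at -0.34 and -0.26 without a called member.

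Genes of protein synthesis and respiration were lower in L-cDC1 by small, even amounts. Of 80 cytosolic ribosomal protein genes tested, limma called 0 and voom called 0, 55 had an unadjusted p under 0.05 on the lower side, and 79 differences were below 0, with a median of -0.34. Their summed level was 19020 to 25320 FPKM in L-cDC1 and 26290 to 31080 FPKM in M-cDC1. Rps15a, of the small subunit, was at 27.8, 36.8 and 36.7 FPKM in L-cDC1 and at 46.5, 56.9 and 43.8 FPKM in M-cDC1, with an adjusted p of 0.131 from limma. Of 78 oxidative phosphorylation genes, 0 were called by limma or voom and 27 had an unadjusted p under 0.05 on the lower side, with a median of -0.26. Ndufa6, a part of respiratory complex I, was at 60.6, 68.3 and 62.2 FPKM against 85.3, 90.8 and 80.2 FPKM. Both sums and both example genes kept the groups apart. Over the alternative fits, the ribosomal median stayed between -0.42 and -0.22, and that of oxidative phosphorylation between -0.31 and -0.17. In the cDC2 libraries the medians were -0.05 and -0.06.

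The cell cycle list leaned lower too, with 0 of 32 called by limma or voom, 5 at an unadjusted p under 0.05 on the lower side and a median of -0.14. Mcm6, a helicase subunit, was at 59.5, 61.8 and 47.2 FPKM in L-cDC1 and at 71.5, 69.9 and 69.0 FPKM in M-cDC1, with an adjusted p of 0.33. The list's summed level overlapped between the groups, at 588 to 687 FPKM and 643 to 744 FPKM.

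The same contrast was read in the cDC2 libraries, which are 6 other libraries. Its group means share no sample with the cDC1 comparison. However, 1 fit to all 12 libraries gave both contrasts the same spread for each gene, so calls in the 2 subsets are not independent. In cDC2, 1.04% of genes tested were called higher in L-cDC2 than in M-cDC2 and 0.788% lower. Of the 33 genes that rose in L-cDC1, 25 had a difference above 0 in cDC2 and 13 were called higher there as well. Among the 13 were Ly6d, Cd79a, Cr2, Fcer2a, Fcmr, Jchain, Nkg7, Gimap4, Gimap6, Ets1, Cd8b1 and Capg. Of the 11 rises that stand in a lymphocyte list, 8 were called in cDC2, and of the other 22, 5. Of the 4 falls, 3 were called lower in cDC2: Fcer1g, Krt80 and Gm35853. Over all genes tested, 6814 of 12434 had the same sign in both subsets. Of the 12 antigen receptor segments called in cDC1, 9 were called the same way in cDC2.

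**Figure D5:**
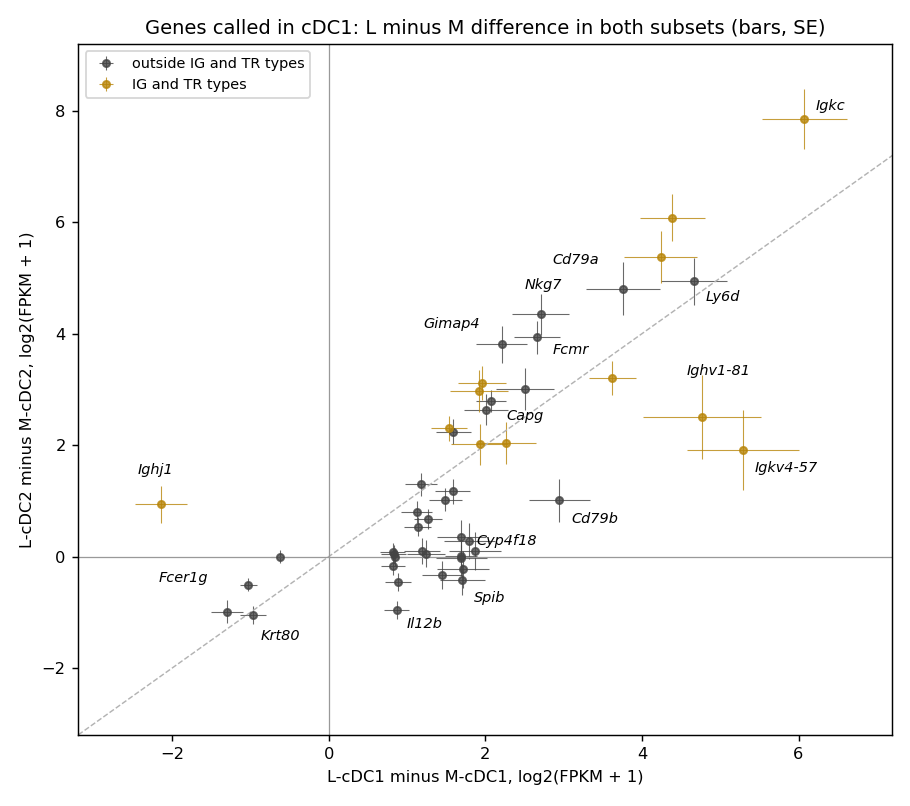
L minus M difference in cDC1 (horizontal) and in cDC2 (vertical) for 48 of the 49 genes called in cDC1, on the log2(FPKM + 1) scale with SE bars; the dashed line marks equal differences. Lymphocyte genes such as Ly6d, Cd79a, Nkg7 and Igkc lie high in both, while Il12b, at 0.87 in cDC1, lies at -0.97 in cDC2.

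Whether a difference depended on the subset was tested by the interaction, which was called for 0.298% of genes tested. Among the 33 rises it was called for 4: Il12b, Cyp4f18, Atp8b2 and Spib. Il12b was at 0.64, 0.816 and 1.04 FPKM in L-cDC2 and at 2.72, 2.31 and 2.68 FPKM in M-cDC2, so that every L library was lower there and every L library higher in cDC1. Its difference in cDC2 was -0.97 ± 0.16 (limma, adjusted p of 0.00539), and the interaction had an adjusted p of 0.00581. Spib was higher in both cDC2 groups than in any cDC1 library, at 27.5 to 35.6 FPKM in L-cDC2 and 33.3 to 46.8 FPKM in M-cDC2, and those groups overlapped. Cyp4f18 was at 20.2 to 35.5 FPKM in L-cDC2 and 26.5 to 27.3 FPKM in M-cDC2. The interaction of Fcer1g was not called (adjusted p of 0.298), though its level in the cDC2 libraries was 739 FPKM or more. Cd79b, which rose by 2.94 in cDC1, differed by 1.01 in cDC2 and was not called there, and the interaction had an adjusted p of 0.266.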

How the data were processed

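The authors deposited FPKM values per gene for all 12 libraries, made from SMART-Seq HT cDNA and Nextera XT libraries per the labels' protocols. The submitters' processing notes name STAR 2.7.9a and featureCounts 2.0.1 and the human build GRCh38, whereas the deposited symbols are those of the mouse; the build of the table is not given in the sources used here. Of its 55322 rows, 1705 carry a repeated symbol and 0 lie on chromosome M. FPKM times length gave whole reads within 0.01 for 100% of values, and those reads gave the depths; on 1 kb, 3 reads are worth 0.134 to 0.168 FPKM in the cDC1 libraries, for counting error only.

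log2(FPKM + 1) was fitted with limma 3.58.1 in R 4.3.3 over all 12 libraries, with 1 mean per group, the spread moderated along a trend in level and 8 degrees of freedom left among samples. P-values are two-sided and Benjamini-Hochberg adjusted over the 12434 genes of each contrast. An exact permutation test of 3 against 3 could not go below 0.1 and was not used. The fit was checked on simulated data. A bound sets the reads of one group against 3 reads over the group at 0. GENCODE M21 gave sequences and GC content, the latter for 96.7% of genes.

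Members, gene lists (40) and alternatives were chosen with earlier results of these data known. Named genes are the 12 largest rises and falls with separate groups and a mean of at least 5 FPKM, without segments and unnamed models; every called list member; up to 3 members per list with the smallest p; the cDC1 markers, Il7r and Rag1; and antigen receptor constant genes and the 5 largest V gene rises. The 18 called genes outside this rule, and list members given for being at 0, were named after their values were seen. Alternatives were pseudocounts of 0.1 and 5, other filters, scalings and spread models, 6 libraries alone, voom on reads, the replicate number as a block, each library left out, and GC-decile centring, added after the data were seen. Some items are not reported here.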

Additional observations from a re-analysis of the deposited data

Results flagged for a closer look

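For 7 named genes the L minus M difference of cDC1 and that of cDC2 differed by the interaction test in limma, with adjustment over all genes tested. On the log2 scale, the cDC1 difference minus the cDC2 difference was 1.83 for Il12b (adjusted p of 0.00581), 2.12 for Spib (0.0491), 1.68 for Cyp4f18 (0.025), 1.35 for Atp8b2 (0.025) and 1.49 for Lyz2 (0.025). Lyz2 was lower in L cells of both subsets, by -0.44 ± 0.18 in cDC1 and by -1.93 in cDC2, and was called in cDC2. The value was -4.71 for Ighg2c (0.0166), a constant gene of IgG that was at 0.291 to 3.46 FPKM in the 6 cDC1 libraries with overlapping groups, and at 5.60, 43.1 and 19.7 FPKM in L-cDC2 against 0.0475 FPKM or less in M-cDC2. It was -3.08 for Ighj1 (0.0137), which had 14 reads in all cDC1 libraries together.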

How the results depend on the processing

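Of the 49 calls, Capg, Fcer1g, Igkv6-15 and Ly6d were kept under all 17 alternatives, 45 were lost under at least 1, and none changed direction. Outside IG and TR types, the 37 calls (33 higher, 4 lower) became 24 (21 higher) without the trend in the spread, 70 (62 and 8) with a filter of 5 FPKM, 10 (7 higher) with no filter, 10 (9 and 1) with the 6 cDC1 libraries alone, 57 (9 lower) with a pseudocount of 0.1 and 11 (9 and 2) with one of 5. Median-of-ratios scaling gave 8 lower. The 12 IG and TR calls became 5 with voom, 4 with no filter, 7 with the 6 libraries alone, 23 with a pseudocount of 0.1 and 3 with one of 5. The 37 interaction calls became 10 with voom and 21 with a pseudocount of 0.1; the 6 libraries alone cannot give one. Leaving out each library in turn gave 17 to 92 calls, 16 to 88 higher, 1 to 9 lower, 6 to 14 IG and TR calls and 14 to 38 interaction calls. The cause of these changes was not tested, apart from fewer libraries or other genes tested where the alternative sets them.

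Uncalled differences near 0 changed sign. Flt3 stood at -0.0494 with GC-decile centring and -0.0139 with median-of-ratios scaling, and Irf8 at -0.0008 with the former. With each library left out in turn, Flt3 ran from -0.0232 to 0.081, Batf3 from -0.1874 to 0.0135 and Il7r from -0.0814 to 0.1212.

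The labels number the samples of each group alike, but nothing says that a number marks a shared animal or day. Deviations of L-cDC1 and M-cDC1 libraries with the same number correlated at r of 0.0836, 0.00801 and 0.119 across genes, and L-cDC1 replicate 2 correlated best with M-cDC1 replicate 1 (0.0299), so the numbers were not taken to pair the samples. With the replicate block, 32 genes were called outside IG and TR types (26 higher and 6 lower), 25 of them among the 37, along with 13 IG and TR segments and 25 interactions.

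With 3 libraries a group, low genes rest on few reads, and every bound for a gene at 0 takes 3 reads over the group.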
